A study of Caenorhabditis elegans with 7 samples.

Results

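The comparison described here sets 1 small RNA library from Caenorhabditis elegans embryos mutant in the U1 snRNP gene rnp-2, allele mg582, against 2 libraries from embryos mutant in U2 snRNP genes, mog-2(ok1221) and rnp-3(ok1424). All 3 were made in the same experiment, in the N2 strain background, with worms grown at 20 °C, and they are 3 of the 7 libraries of the series. A gene or intron was counted as set apart in the U1 mutant when the rnp-2(mg582) value lay outside the values of both U2 mutants, since with 1 library against 2 this is the only bracket the design gives. The other libraries were used as separate readings: wildtype N2 from experiment 1, and rnp-2(mg582), rnp-2(tm4058) and wildtype N2 from experiment 2. The labels name the alleles but do not say what each changes, and nothing in them says that each library is its own culture; the p-values therefore measure how far these libraries differ, which may be technical.

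The spliceosome removes introns from pre-mRNA. Its U1 particle pairs with the donor site at the start of the intron, and its U2 particle pairs with the branch point near the intron's end. RNP-2 is an RNA-binding protein of the U1 particle. RNP-3 is its close relative in the U2 particle, and MOG-2 is the leucine-rich-repeat protein that partners it there. Nematodes also make large numbers of small RNAs against their own transcripts, copied from RNA templates by RNA-dependent RNA polymerases and carried by Argonaute proteins. The libraries hold such small RNAs, purified by gel, so every value below counts small RNA reads that cross a splice junction and not mRNA.

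At each end of an intron the deposited table gives reads joining exon to exon, called spliced reads here, and reads crossing from exon into intron, called unspliced reads. It lists 3717 genes and, with only 1 junction kept where several of a gene had nearly the same spliced reads, 7277 junctions. The rnp-2(mg582) library held 177907 spliced and 15517 unspliced reads, the mog-2(ok1221) library 232706 and 20247, and the rnp-3(ok1424) library 186432 and 14749. The unspliced share over all junctions was 8.02% in rnp-2(mg582) (95% Wilson interval 7.90 to 8.14), 8.0% in mog-2(ok1221) and 7.33% in rnp-3(ok1424). In this total the U1 mutant lay above rnp-3(ok1424) (7.22 to 7.45) and did not differ from mog-2(ok1221) beyond counting error. The rnp-2 libraries of experiment 2 had 8.57% and 8.25%, and the wildtype libraries had 7.23% in experiment 1 and 7.16% in experiment 2. All 3 rnp-2 libraries thus lay above both wildtype libraries, but so did mog-2(ok1221) and, by less, rnp-3(ok1424). Intervals given here cover counting error only. Levels of genes are given as scaled CPM, the authors' depth-normalised counts (CPM) after trimmed-mean scaling, so that the 3 mutant libraries share 1 scale.

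The mutated genes gave few reads. rnp-2 had 0.987 scaled CPM in rnp-2(mg582), against 1.42 in mog-2(ok1221) and 0.950 in rnp-3(ok1424), so its junction reads did not mark the mg582 library. rnp-3, its neighbour on chromosome IV, was listed at 0 in rnp-3(ok1424), with 1 read in rnp-2(mg582) and 11 reads in mog-2(ok1221). mog-2 was not analysed here.

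The introns whose small RNAs were most shifted towards the unspliced form in the U1 mutant were short, and most had T as the third base of the intron. The donors of the introns that the ratio results turn on are shown here, 5′ to 3′ on the strand of the gene, as the deposited table gives them, with the first bases of the intron in capitals and the end of the exon before them. The first 7 had a higher unspliced-to-spliced ratio in rnp-2(mg582), and 5 of them passed the test, all but R04A9.3 and B0250.8. The last 6 had a lower ratio, and of these dct-10, T20B3.1 and the shorter Y66D12A.3 intron passed.
K08F11.1, chromosome IV: cgaccGTTAGCagca
C53A5.13, chromosome V: acctgGTTTGAtata
T13C5.6, chromosome X: caaagGTTCACaggt
R04E5.9, chromosome X: gtttgGTTTGCttct
T07E3.2, chromosome III: agaaaGTTCGTtttt
R04A9.3, chromosome X: ttacgGTTGGAtttt
B0250.8, chromosome V: ctccaGTACGAaagt
dct-10, chromosome V: ttcctGTAACCgttg
T20B3.1, chromosome V: tctagGTGAGAtgtc
Y66D12A.3, intron of 175 bases, chromosome III: acttgGTGAGCtgac
F55C9.3, chromosome V: ataacGTGAGTttta
Y116A8B.1, chromosome IV: ggagaGTAAGTtatt
Y66D12A.3, intron of 597 bases, chromosome III: atgatGTGAGTtacg

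K08F11.1 had the largest shift among the introns named by size. Its intron at IV:4725023-4725069 is an annotated intron of 47 bases in a protein-coding gene, and it is the only junction of the gene in the table. It gave 54 unspliced and 5 spliced reads in rnp-2(mg582), against 67 and 399 in mog-2(ok1221) and 42 and 410 in rnp-3(ok1424). The unspliced share was 91.5% in rnp-2(mg582) (95% Wilson interval 81.6 to 96.3), 14.4% in mog-2(ok1221) (11.5 to 17.9) and 9.29% in rnp-3(ok1424) (6.95 to 12.3). The U1 library stood far above both U2 libraries, and wildtype of experiment 1, at 20.9%, stood near them. The log2 change of the unspliced-to-spliced ratio was 5.23 ± 0.73 (SE), with an adjusted p of 1.2e-09 in limma over 557 introns. Unspliced reads of K08F11.1 were 4.44 scaled CPM in rnp-2(mg582), against 5.0 in mog-2(ok1221) and 3.63 in rnp-3(ok1424), whereas spliced reads were 0.411, 29.8 and 35.4 scaled CPM in the same order. The shift in this intron was therefore a loss of spliced reads at a like level of unspliced ones.

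C53A5.13 and T13C5.6 gave the next largest shifts, and there the unspliced reads were higher in number as well. The C53A5.13 intron, V:14549586-14549628, gave 66 unspliced and 1 spliced read in rnp-2(mg582), against 16 and 22 in mog-2(ok1221) and 4 and 12 in rnp-3(ok1424), with a log2 change of 3.95 ± 0.75 and an adjusted p of 3.96e-05 in limma. The T13C5.6 intron, X:6207126-6207170, gave 40 unspliced and 12 spliced reads in rnp-2(mg582), against 6 and 63 in mog-2(ok1221) and 7 and 70 in rnp-3(ok1424), with a log2 change of 3.86 ± 0.72 and an adjusted p of 3.7e-05 in limma. Their unspliced shares were 98.5% and 76.9% in rnp-2(mg582), and no share in either U2 library exceeded 42.1%.

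R04E5.9 and T07E3.2 passed the same test with smaller shifts. R04E5.9, X:8806873-8806920, had an unspliced share of 73.0% in rnp-2(mg582), 27.6% in mog-2(ok1221) and 13.3% in rnp-3(ok1424), with an adjusted p of 0.0161 in limma. T07E3.2, III:6907689-6907735, was already mostly unspliced in the U2 mutants, at 75.0% and 58.3%, and reached 98.7% in rnp-2(mg582), with 75 unspliced reads and 1 spliced read and an adjusted p of 0.0212 in limma. An intron of chn-1, a CHIP-type ubiquitin ligase gene, at I:6183335-6183381, had a share of 97.0% in rnp-2(mg582), 73.3% in mog-2(ok1221) and 3 of 5 reads in rnp-3(ok1424), with an adjusted p of 0.0225. The seventh intron to rise, in C16H3.3, has only 1 end in the table and rests on 8 reads in rnp-2(mg582).

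B0250.8 and R04A9.3 were named by the size of their shift and missed the threshold. B0250.8 is the deepest of these introns. At V:20470386-20470431 it had 1056 spliced reads in rnp-2(mg582), 2075 in mog-2(ok1221) and 1139 in rnp-3(ok1424). Its unspliced share was 41.9% in rnp-2(mg582) (39.7 to 44.2), 16.3% in mog-2(ok1221) (14.9 to 17.8) and 11.9% in rnp-3(ok1424) (10.3 to 13.8), with an adjusted p of 0.0617 in limma. R04A9.3, X:380482-380523, had 9 unspliced and 11 spliced reads in rnp-2(mg582) and shares of 8.82% in mog-2(ok1221) and 9.09% in rnp-3(ok1424), with an adjusted p of 0.0585 in limma.

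Over all 557 introns tested for the ratio, 12 passed an adjusted p of 0.05 in limma (2.15%), 7 with a higher (1.26%) and 5 with a lower (0.898%) unspliced-to-spliced ratio in rnp-2(mg582). That fit had 1 residual degree of freedom, so its spread was drawn largely from all introns together. It did not weigh the reads behind an intron. The SE was 0.70 for C16H3.3, with 5 unspliced and 3 spliced reads in rnp-2(mg582). It was also 0.70 for B0250.8, with 763 and 1056. By distance alone, the U1 library lay at least 2-fold above both U2 libraries in 46 introns (8.26%). It lay at least 2-fold below both in 31 (5.57%), and the median log2 change was -0.06 over all 557. edgeR's quasi-likelihood interaction test on recovered reads called 6 introns, all higher, and 5 of these were among the 12: K08F11.1, C53A5.13, T13C5.6, R04E5.9 and T07E3.2. With experiment as a replicate block over all 7 libraries, 123 introns passed, 70 higher and 53 lower. The only residual degree of freedom of that fit comes from the repeats of wildtype and rnp-2(mg582). The difference between the U2 libraries is therefore not part of its error, and its counts are not a better replicated form of the main test.

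**Figure D1:**
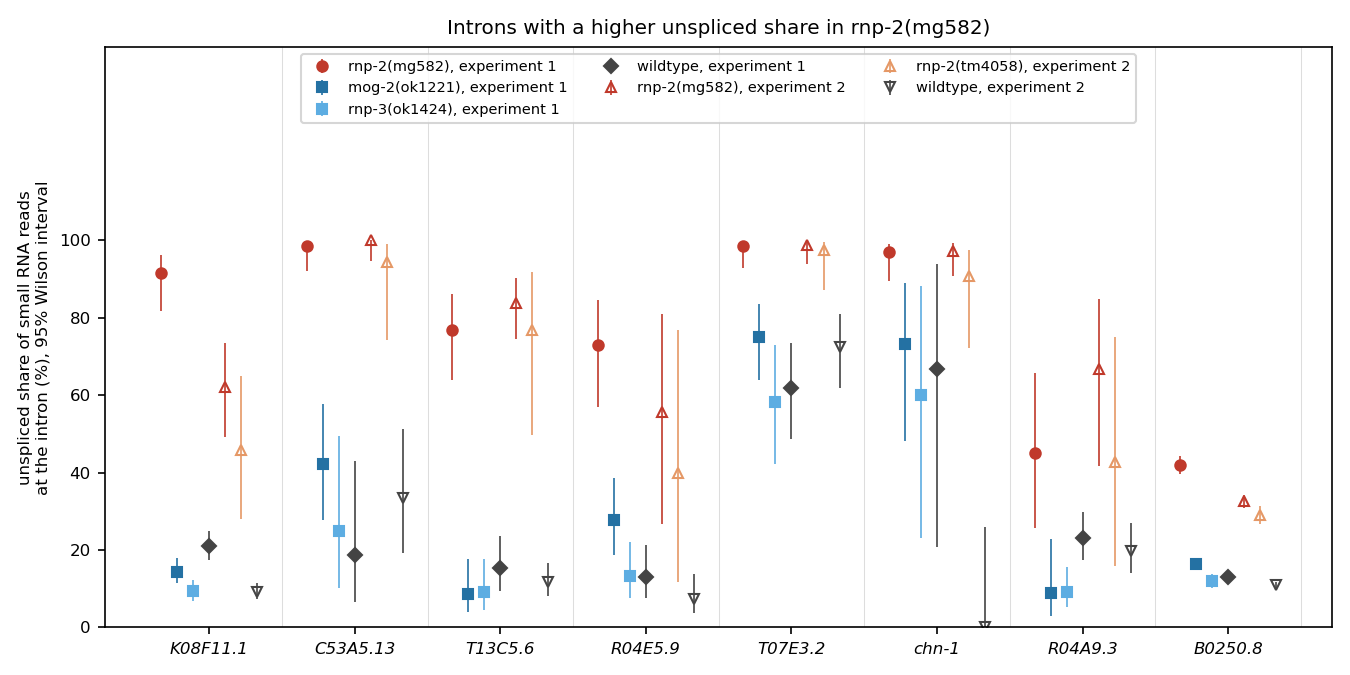
Unspliced share of the small RNA reads at 8 introns (percent, vertical axis, 95% Wilson intervals) in the 7 libraries, with rnp-2(mg582) of experiment 1 leftmost in each column and open symbols for experiment 2. In each intron the filled red point lies above both blue squares, and both experiment 2 rnp-2 libraries lie above the wildtype of that experiment.

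Experiment 2, which shares no library with the contrast, gave the same order in these introns. The K08F11.1 intron was 62.1% unspliced in the second rnp-2(mg582) library and 45.8% in rnp-2(tm4058), against 9.23% in wildtype. T13C5.6 was 84.0% and 76.9% unspliced in the same mutants, against 11.8% in wildtype, and B0250.8 was 32.6% and 29.1%, against 10.9%. C16H3.3 was the exception among the introns that rose, at 7.69% and 0% in the rnp-2 mutants, from 13 and 6 reads, against 8.93% in wildtype. Of the 46 introns above both U2 libraries, 44 had a higher ratio in the second rnp-2(mg582) library than in wildtype, where 51.5% of all 557 did, and 43 did so in rnp-2(tm4058), where 49.9% of all did. A difference of at least 2-fold was found in 27 of the 46 for rnp-2(mg582), against 14.4% of all introns, and in 26 for rnp-2(tm4058), against 14.7%. Of the 31 introns below both, 28 had a lower ratio than wildtype in rnp-2(mg582), 18 of them at least 2-fold, against 9.16% of all introns. In rnp-2(tm4058) these counts were also 28 and 18, against 13.8% of all introns. The counts use the ratio after adding 0.5 scaled CPM, and some introns counted as at least 2-fold lower had no lower unspliced share. F55C9.3 had 2.25% and 1.73% in the rnp-2 mutants, against 1.09% in wildtype, at V:19287470-19287517. At V:19287618-19288063 it had 3.72% and 3.45%, against 2.56%. T20B3.1 had 6.80% and 6.79%, against 6.25%. How many of the counted introns rest on the added value was not tested. The experiment 2 comparisons share their wildtype library.

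The donors above share a feature that was noticed after their values were seen. Of the 7 introns shown with a higher ratio, all but B0250.8 have T as the third base of the intron. Among the 6 introns with both ends listed that passed with a higher ratio, 5 had T there and chn-1, whose donor is not shown, had A, against 68 of the 340 GT introns tested (20.0%) and 16% of the 6767 GT introns with both ends in the table. T stood there in 12 of 35 introns at least 2-fold above both U2 libraries (34.3%) and in 1 of 23 introns below both (4.35%). Read the other way, 17.6% of the 68 introns with T lay above both and 1.47% below both. For the 194 introns with A, the commonest base, these shares were 7.73% and 6.19%, and for the 75 with G they were 9.33% and 12%.

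In experiment 2 the introns with T at the third base had a median log2 change of the ratio of 0.28 in rnp-2(mg582) and 0.21 in rnp-2(tm4058), each against wildtype. Introns with A had medians of 0.15 and 0.13, and introns with G had -0.21 and -0.10. The shifted introns were short as well. Of the 35 introns above both, 24 were at most 50 bases long (68.6%), against 36.8% of the 340 tested and 26.1% of the 23 below both, and the median lengths of these sets were 46, 60 and 69 bases. The commonest base at each of the first 6 intron positions in the table spells GTAAGT. The match to it differed little between the introns above both and all those tested. Introns matching at 4 or fewer positions made up 48.6% of the 35 above both and 48.2% of the 340 tested, with mean matches of 4.37 and 4.48 positions, and 34.8% of the 23 below both. The 6 introns that passed with a higher ratio all matched at 4 or fewer. Above both lay 2 of 12 introns matching at 2 positions, 5 of 41 at 3, 10 of 111 at 4, 14 of 123 at 5 and 4 of 53 at 6. Below both lay 0, 0, 8, 10 and 5 in the same order. The 3 lower introns shown that passed match at 4 positions, dct-10 and T20B3.1 with the limits given above, as do K08F11.1, T07E3.2 and B0250.8. At base 4, the 51 introns with T had a median log2 change of 0.31 and the 211 with A had 0.00. At base 5, 12.4% of the 241 introns with G lay above both and 8.30% below both, against 2.13% in each direction of the 47 with T. All these counts are descriptions with no test.

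The 5 introns that passed with a lower ratio in rnp-2(mg582) were of mixed kinds, and edgeR's interaction test called none of them. In T20B3.1, V:16820404-16820451, spliced reads rose to 348 in rnp-2(mg582), against 7 in mog-2(ok1221) and 10 in rnp-3(ok1424), with 13, 0 and 0 unspliced reads. Its log2 change of -2.97 depends on the added 0.5 scaled CPM, and edgeR's estimate of 1.37, with an adjusted p of 1.0, has the opposite sign. The Y66D12A.3 intron at III:11591520-11591694 had 2 unspliced of 40 reads in rnp-2(mg582), against 66.7% of 3 reads in mog-2(ok1221) and 70.0% of 10 reads in rnp-3(ok1424). In experiment 2 it was lower as well, at 2.44% and 6.67% in rnp-2(mg582) and rnp-2(tm4058) against 35.9% in wildtype. The dct-10 junction had 0 spliced reads in all 7 libraries, so its ratio follows the unspliced reads alone, which were 3 in rnp-2(mg582), 102 in mog-2(ok1221) and 50 in rnp-3(ok1424). Y92H12A.2 had no read of either kind in rnp-2(mg582). The Y52B11A.18 intron was 10.5% unspliced in rnp-2(mg582), 54.2% in mog-2(ok1221), 40.6% in rnp-3(ok1424) and 13.6% in wildtype of the same experiment, so there the U2 libraries stood apart from wildtype and the U1 library did not. In experiment 2 the order was the opposite, with 12 unspliced and 108 spliced reads in rnp-2(mg582) and a share of 10.3% in rnp-2(tm4058), against 2.84% in wildtype.

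Among lower introns named by size alone, F55C9.3 at V:19287470-19287517 was 1.30% unspliced in rnp-2(mg582), 5.70% in mog-2(ok1221) and 1.68% in rnp-3(ok1424), with an adjusted p of 0.0569 in limma. The intervals of the rnp-2(mg582) share (0.688 to 2.46) and the rnp-3(ok1424) share (0.462 to 5.92) overlap. The log2 distance of -1.53 to the nearer U2 library includes the added 0.5 scaled CPM, which lowers the ratio where spliced reads are more and unspliced reads are few, as in T20B3.1. In experiment 2 the F55C9.3 shares were 2.25% in rnp-2(mg582) and 1.73% in rnp-2(tm4058), against 1.09% in wildtype. Y116A8B.1 at IV:17216951-17217003 was 8.25% unspliced in rnp-2(mg582), 20.7% in mog-2(ok1221) and 17.6% in rnp-3(ok1424), with an adjusted p of 0.347. In experiment 2 Y116A8B.1 was 9.34% and 3.13% unspliced in the rnp-2 mutants, against 14.9% in wildtype. The Y66D12A.3 intron of 597 bases was 54.2% unspliced in rnp-2(mg582), 90.0% in mog-2(ok1221) and 100% in rnp-3(ok1424). In experiment 2 its order was the opposite, with 72.2% and 83.3% in the rnp-2 mutants, against 66.7% in wildtype. Y71A12B.11 was 17.8%, 46.8% and 43.8% unspliced in experiment 1, and 32.9% and 16.7% in experiment 2, against 62.1% in wildtype.

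The end of the intron that unspliced reads cross gave no call. Reads crossing the donor made up 45.2% of unspliced reads in rnp-2(mg582), 47.8% in mog-2(ok1221) and 45.7% in rnp-3(ok1424). Of 346 introns tested for the donor-to-acceptor ratio, none passed in limma (0.00%), 20 had an unadjusted p under 0.05, and the U1 library lay at least 2-fold above both U2 libraries in 8 (2.31%) and below both in 13 (3.76%). Among introns with at least 20 unspliced reads in each library, F49F1.8 lay farthest from the nearer U2 library. It had 8 donor and 59 acceptor reads in rnp-2(mg582), against 48 and 76 in mog-2(ok1221) and 24 and 34 in rnp-3(ok1424), and an adjusted p of 0.600 in limma. In experiment 2 the same intron gave 9 and 36 reads in rnp-2(mg582) and 5 and 8 in rnp-2(tm4058), against 34 and 107 in wildtype. With experiment as a replicate block over 7 libraries, 34 introns passed, 16 higher and 18 lower.

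Spliced reads summed over each gene gave the wider contrast. The genes farthest above both U2 mutants were T20B3.1 and F47G6.3, whose spliced small RNAs were abundant in every rnp-2 library and near the floor in every other. T20B3.1, on chromosome V, had 52.3 scaled CPM in rnp-2(mg582), against 1.19 in mog-2(ok1221) and 1.04 in rnp-3(ok1424), and all 8 of its junctions were above both. Its log2 change was 5.03 ± 0.60 (SE), with an adjusted p of 0.00991 in limma over 2413 genes. F47G6.3, on chromosome I, had 31.1 scaled CPM in rnp-2(mg582), against 0.522 in mog-2(ok1221) and 0.173 in rnp-3(ok1424), with a log2 change of 5.25 ± 0.59 and the same adjusted p. Wildtype of experiment 1 lay with the U2 mutants in both genes, at 1.04 and 0.625 scaled CPM. In experiment 2, T20B3.1 had 47.3 scaled CPM in rnp-2(mg582) and 48.9 in rnp-2(tm4058), against 0.945 in wildtype, and F47G6.3 had 45.2 and 46.6, against 0.439.

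The gene farthest below both was K08F11.1, already described by its single intron, with a log2 change of -5.18 ± 0.62 and an adjusted p of 0.00991 in limma. K07A1.3, on chromosome I, followed, with 0.494 scaled CPM in rnp-2(mg582), 23.2 in mog-2(ok1221) and 17.5 in rnp-3(ok1424), a log2 change of -4.38 ± 0.62 and an adjusted p of 0.0241. All 4 of its junctions were below both. In experiment 2 it had 0.0769 scaled CPM in rnp-2(mg582) and 0 in rnp-2(tm4058), against 7.49 in wildtype, so the loss was present in each rnp-2 library.

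Of 2413 genes tested for spliced reads, 14 passed an adjusted p of 0.05 in limma (0.580%), 11 higher (0.456%) and 3 lower (0.124%) in rnp-2(mg582). The other genes that rose included acc-4, of the acetylcholine-gated chloride channel family, at 13.2 scaled CPM in rnp-2(mg582), 0.299 in mog-2(ok1221) and 0.518 in rnp-3(ok1424), with an adjusted p of 0.0241. clec-163, a C-type lectin gene, had 6.99 scaled CPM in rnp-2(mg582), 0.0746 in mog-2(ok1221) and 0.0864 in rnp-3(ok1424), with an adjusted p of 0.0325. Both had the same order in experiment 2, where acc-4 had 5.15 and 8.43 scaled CPM in rnp-2(mg582) and rnp-2(tm4058), against 0.405 in wildtype, and clec-163 had 4.77 and 4.64, against 0. F41C3.8, C34B2.9, Y18H1A.1 (ptp-5.3 in the annotation, of the tyrosine phosphatase family), sre-23 of the chemoreceptor families and the pseudogene Y69A2AR.14 also rose, at 5.35 to 13.2 scaled CPM in rnp-2(mg582) and at most 0.970 in any U2 library.

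R10F2.4 and R10F2.5 are neighbours on chromosome III and rose together, to 5.26 and 5.1 scaled CPM in rnp-2(mg582), against at most 0.173 in any U2 library. In experiment 2 the alleles differed, and R10F2.4 had 5.76 scaled CPM in rnp-2(mg582) and 1.05 in rnp-2(tm4058), against 1.48 in wildtype. How reads shared by neighbouring or near-identical genes were assigned is not given in the sources used here, so such pairs are uncertain as separate genes.

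R08B4.3, on chromosome X, was the third gene to fall, with 0.494 scaled CPM in rnp-2(mg582), 12.02 in mog-2(ok1221) and 9.24 in rnp-3(ok1424) and an adjusted p of 0.0468 in limma. Here wildtype had 0.573 scaled CPM, so that the U2 libraries stood apart from wildtype and the U1 library did not, and in experiment 2 all 3 libraries held 0.615 to 0.675 scaled CPM. klp-8, named gcc-1 in the annotation and also on chromosome X, had 0.658 scaled CPM in rnp-2(mg582), 11.9 in mog-2(ok1221), 8.03 in rnp-3(ok1424) and 1.41 in wildtype, but in experiment 2 the rnp-2 mutants, at 0.538 and 0.422, lay below wildtype, at 2.80. C04G2.10 was the counterpart among the higher genes, with 24.4 scaled CPM in rnp-2(mg582), 6.57 in mog-2(ok1221), 3.28 in rnp-3(ok1424) and 37.6 in wildtype. Lying outside both U2 libraries therefore does not say which of the mutants departed from wildtype.

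The 14 calls depended on the scaling and on how the spread was estimated, since the difference between the U2 libraries is the only residual degree of freedom. None passed with library size alone or with median-of-ratios scaling, and all 14 were among the 26 genes called by DESeq2 and the 110 called by edgeR on recovered reads. With experiment as a replicate block over 7 libraries 523 genes passed, 246 higher and 277 lower, all 14 included. That fit takes its only residual degree of freedom from the repeats of wildtype and rnp-2(mg582), and the difference between the U2 libraries is not part of its error.

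By distance, the rnp-2(mg582) library lay at least 2-fold outside both U2 libraries in 270 of 2413 genes (11.2%), above both in 145 (6.01%) and below both in 125 (5.18%). Folds were taken after adding 0.5 scaled CPM. With library size alone the count was 296, of which 98 lay above and 198 below, because that scaling moved the median log2 change of all genes to -0.27, against 0.02 with trimmed-mean scaling. The libraries differed about as much from each other in every pairing. Genes at least 2-fold apart numbered 537 between rnp-2(mg582) and mog-2(ok1221), 585 between rnp-2(mg582) and rnp-3(ok1424), and 471 between mog-2(ok1221) and rnp-3(ok1424). At the edge of the threshold, helq-1 was just counted as above both, with 1.40 scaled CPM in rnp-2(mg582), 0.448 in mog-2(ok1221) and 0.345 in rnp-3(ok1424), and Y71H2AM.12 was just not counted, with 4.52, 2.02 and 0.518.

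**Figure D2:**
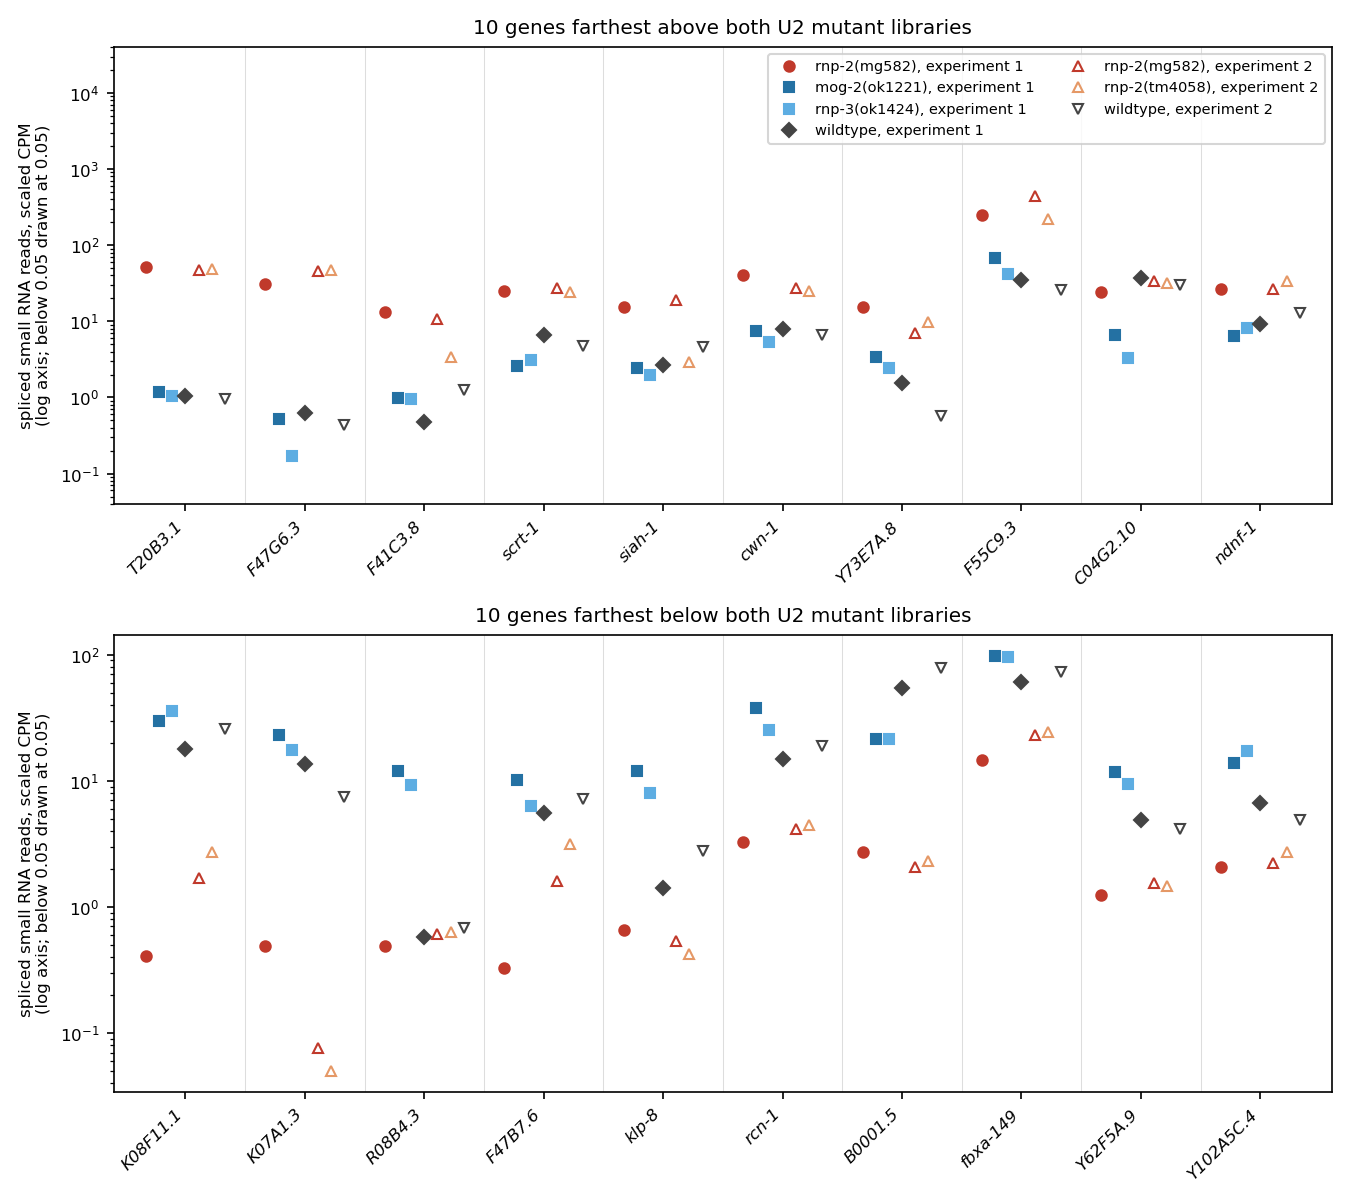
Spliced small RNA reads of the 10 genes farthest above (top) and the 10 farthest below (bottom) both U2 mutants, as scaled CPM on a log axis, in the 7 libraries, with rnp-2(mg582) of experiment 1 leftmost for each gene. The experiment 2 rnp-2 libraries (open triangles pointing up) mostly lie with the filled red points, and the wildtype libraries lie nearer to the U2 mutants in most genes, but near the rnp-2 libraries in C04G2.10 and R08B4.3 and, for experiment 1, klp-8, and above both U2 mutants in B0001.5.

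The other higher genes named by distance did not pass the test, and 4 of them are given here. cwn-1, a Wnt ligand, had 40.1 scaled CPM in rnp-2(mg582), against 7.46 in mog-2(ok1221), 5.35 in rnp-3(ok1424) and 8.02 in wildtype, with 7 of 7 junctions above both. scrt-1, a Scratch-type zinc finger transcription factor, had 25.3 scaled CPM in rnp-2(mg582), against 2.61 and 3.11 in the U2 mutants. siah-1, a Siah-type ubiquitin ligase, had 15.5, against 2.46 and 1.99, and ndnf-1, named for the neuron-derived neurotrophic factor, had 26.4, against 6.42 and 8.20. Their adjusted p-values were 0.0632 to 0.304 in limma. In experiment 2 cwn-1 had 27.6 scaled CPM in rnp-2(mg582) and 24.7 in rnp-2(tm4058), against 6.61 in wildtype. siah-1 differed between the alleles there, at 19.3 scaled CPM in rnp-2(mg582) and 2.95 in rnp-2(tm4058), against 4.59 in wildtype.

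Among the lower genes, B0001.5 and rcn-1 were low in every rnp-2 library. rcn-1, rcan-1 in the annotation, encodes the calcipressin, a regulator of the phosphatase calcineurin. It had 3.29 scaled CPM in rnp-2(mg582), against 37.6 in mog-2(ok1221) and 25.3 in rnp-3(ok1424), and in experiment 2 it had 4.15 and 4.43 in the rnp-2 mutants, against 18.7 in wildtype. B0001.5 had 2.71 scaled CPM in rnp-2(mg582), 21.3 in mog-2(ok1221) and 21.2 in rnp-3(ok1424), and the wildtype libraries held more than either U2 mutant, 54.8 in experiment 1 and 77.8 in experiment 2. Their adjusted p-values in limma were 0.0632 for rcn-1 and 0.0860 for B0001.5, past the threshold in neither case. The pseudogene F47B7.6 and the genes Y62F5A.9 and Y102A5C.4 had 0.329 to 2.06 scaled CPM in rnp-2(mg582) and 6.30 to 17.4 in the U2 mutants.

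On scaled values, most genes outside both U2 libraries kept their direction in the rnp-2 libraries of experiment 2, which the choice of genes did not use. The scaling factors were 0.139 for rnp-2(mg582), 0.0332 for rnp-2(tm4058) and 0.335 for wildtype, so rnp-2(tm4058) levels rest most on the scaling. With library size alone the order can change. F55C9.3 had 1041 of 142819946 reads in rnp-2(tm4058) and 775 of 88364327 in wildtype, a lower share. cwn-1 had 117 and 196 reads, also a lower share. The counts below were not repeated with library size alone. Of the 145 genes above both, 126 were higher in rnp-2(mg582) than in wildtype (86.9%, against 47.5% of all genes tested), and 82 were at least 2-fold higher (56.6%, against 6.88%). In rnp-2(tm4058), 125 were higher (86.2%, against 45.4%), and 78 were at least 2-fold higher (53.8%, against 8.45%). Of the 125 genes below both, 117 were lower in rnp-2(mg582) than in wildtype (93.6%, against 52.3%), 74 of them at least 2-fold (59.2%, against 10.1%). In rnp-2(tm4058), 112 were lower (89.6%, against 54.5%), 76 of them at least 2-fold (60.8%, against 15.0%). Both rnp-2 libraries of experiment 2 differed from wildtype by at least 2-fold in the same direction for 70 of the 145 and 67 of the 125. Wildtype of experiment 1 lay nearer to the U2 mutants than to rnp-2(mg582) for 80.7% of the higher and 72.8% of the lower genes, against 58.7% of all genes, a share that choosing genes far from the U2 mutants tends to raise.

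**Figure D3:**
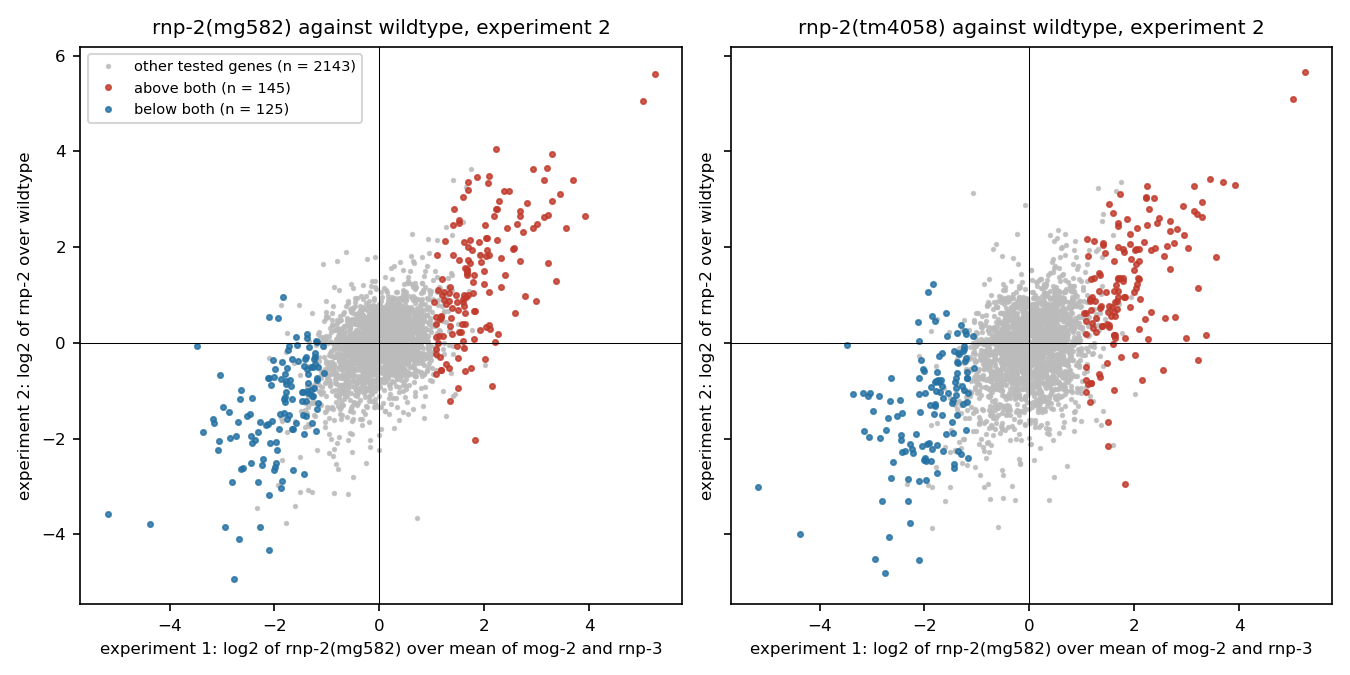
Each point is 1 of 2413 genes. The horizontal axis gives the log2 change of spliced reads between rnp-2(mg582) and the mean of both U2 mutants in experiment 1, and the vertical axis gives the log2 change of rnp-2(mg582) (left) or rnp-2(tm4058) (right) over wildtype in experiment 2. Genes above both U2 mutants (red, n = 145) lie mostly above the zero line and genes below both (blue, n = 125) mostly under it.

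Among the gene lists, which were chosen with earlier results of these data known, ERGO-1 pathway targets had the largest share above both U2 mutants. ERGO-1 is an Argonaute protein whose primary small RNAs, made in oocytes and embryos, act on a set of poorly conserved and duplicated genes. Of 12 measured list members, 7 lay at least 2-fold above both U2 mutants and 1 below, with a median log2 change of 1.33, against 0.02 over all genes and against 6.01% of all genes above both. None passed the test, the lowest adjusted p being 0.144 in limma, and with library size alone the counts were 5 above and 2 below. F55C9.3 had 251 scaled CPM in rnp-2(mg582), 68.8 in mog-2(ok1221) and 41.5 in rnp-3(ok1424). F55C9.5, its neighbour on chromosome V, had 115, 40.5 and 24.01, C40A11.10 had 65.7, 28.1 and 26.3, and Y116F11A.1 had 56.3, 24.3 and 18.1, in the same order of libraries. How reads shared by neighbouring or duplicated genes were assigned is not given, so list members are uncertain as separate genes.

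On scaled values, each of these 4 was also above wildtype in both rnp-2 libraries of experiment 2. F55C9.3 had 439 scaled CPM there in rnp-2(mg582) and 219 in rnp-2(tm4058), against 26.1 in wildtype. The rnp-2(tm4058) value of F55C9.3 rests on the scaling, as given above. F55C9.5 had 307 and 166, against 27.3. K02E2.6, C44B11.6 and W04B5.1 had 1.73 to 10.43 scaled CPM in rnp-2(mg582) and at most 2.33 in any U2 library. The members did not all go 1 way. E01G4.5, the most abundant, had 171 scaled CPM in rnp-2(mg582), 339 in mog-2(ok1221) and 448 in rnp-3(ok1424), just short of 2-fold below both, and 119.2 and 95.3 in the rnp-2 mutants of experiment 2, against 563 in wildtype. F39F10.4 had 1.56 scaled CPM in rnp-2(mg582), 7.02 in mog-2(ok1221) and 22.6 in rnp-3(ok1424), and 0.384 and 0.422 in the rnp-2 mutants of experiment 2, against 14.7 in wildtype.

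**Figure D4:**
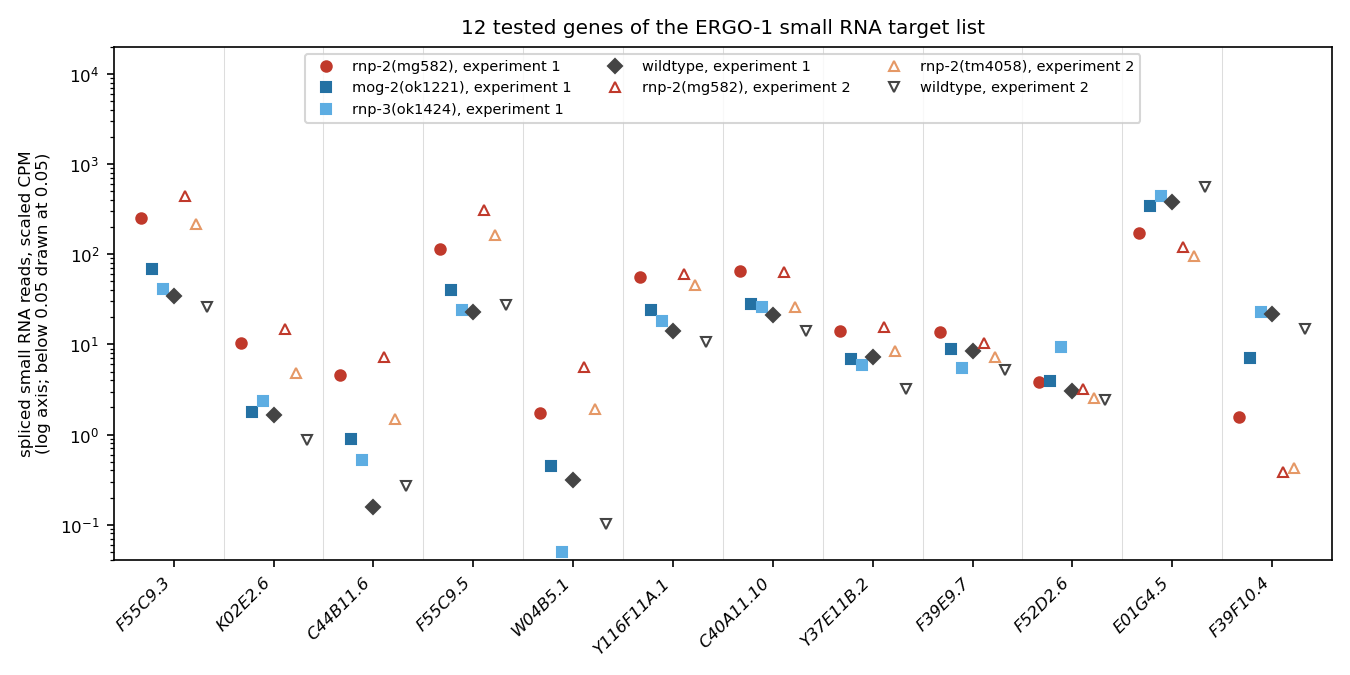
Spliced small RNA reads of the 12 measured ERGO-1 target genes, as scaled CPM on a log axis, in the 7 libraries, ordered by log2 change with rnp-2(mg582) of experiment 1 leftmost in each column. In 7 genes, from F55C9.3 to C40A11.10, the filled red point lies at least 2-fold above both blue squares, and in E01G4.5 and F39F10.4 the rnp-2 libraries lie below the others.

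Genes of the small RNA machinery lay outside both U2 mutants about as often as other genes. Of 31 measured RNA interference factors, 2 lay above both and none below, against 6.01% and 5.18% of all genes, with a median log2 change of -0.10. sid-2, a membrane protein needed to take up ingested RNA from the gut, had 2.88 scaled CPM in rnp-2(mg582), 0.0746 in mog-2(ok1221) and 0.345 in rnp-3(ok1424), and in experiment 2 it had 3.38 and 2.95 in the rnp-2 mutants and 0 in wildtype. mut-14, a helicase of the Mutator complex, had 1.89, 0.672 and 0.432 scaled CPM. The most abundant members, zfp-1 and eri-6, had 113 and 43.8 scaled CPM in rnp-2(mg582), against 115 and 72.8 in mog-2(ok1221) and 90.5 and 58.5 in rnp-3(ok1424). No member passed the test.

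F-box and MATH genes, large families of adaptors for ubiquitin ligases, lay below both U2 mutants more often than above. Of 59 measured members, 7 lay below both (11.9%, against 5.18% of all genes) and 1 above, with a median log2 change of -0.28, and none passed the test. Abundant genes lay below both more often: of 501 genes averaging at least 5 scaled CPM, 59 lay below and 21 above. The list was not compared with genes of like abundance. fbxa-149, a pseudogene in the annotation, had 14.5 scaled CPM in rnp-2(mg582), 97.9 in mog-2(ok1221) and 95.3 in rnp-3(ok1424), with an adjusted p of 0.0632 in limma. fbxa-120 had 4.77, 26.9 and 26.7 scaled CPM in the same order, fbxa-150 had 5.1, 16.7 and 25.1, and bath-10 had 6.66, 16.4 and 16.7. The single higher member, fbxa-52, had 1.73 scaled CPM in rnp-2(mg582), 0.522 in mog-2(ok1221) and 0.0864 in rnp-3(ok1424). Members of these families resemble each other in sequence, so reads may be divided among them.

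No member of the splicing factor and housekeeping lists was counted, but the lists are small beside the 11.2% of all genes that lay outside both U2 mutants. The measured members were 2 U1 and U2 factors, 14 other splicing factors, 13 ribosomal protein genes, 4 histone genes, 26 germline and maternal genes, 18 heat shock and stress genes and 4 zygotic genes. Their median log2 changes were 0.16, 0.01, 0.34, 0.53, 0.14, 0.02 and 0.42. The collagen and cuticle list had 1 of 11 members above, cutl-7, at 1.23 scaled CPM in rnp-2(mg582), 0 in mog-2(ok1221) and 0.0864 in rnp-3(ok1424), and 1 below, col-71, at 4.36, 14.8 and 10.36, which is near the shares of all genes, 6.01% above and 5.18% below.

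Few markers of other cells were measured, so that counts among them say little beside the 5.18% of all genes below both. Of 5 measured neuron genes 1 lay below both, dlk-1, a kinase known for its role in axon regeneration, with 3.78 scaled CPM in rnp-2(mg582), 23.7 in mog-2(ok1221) and 21.9 in rnp-3(ok1424). The summed level of that list was 75.1 scaled CPM in rnp-2(mg582), 74.4 in mog-2(ok1221) and 121 in rnp-3(ok1424). Of 2 sperm genes 1 lay below both, spe-41, a sperm calcium channel gene, at 1.15, 3.36 and 3.11 scaled CPM. Neither of 2 muscle genes did, and no intestine gene of the list is in the table. The part of such cells in the other results was not tested, and fewer cells of a type and fewer small RNAs per cell cannot be told apart in such samples.

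Genes on chromosome X were lower in the U1 mutant more often than genes elsewhere, a pattern noticed after the values were seen. Of 181 X genes tested, 28 lay at least 2-fold below both U2 mutants (15.5%) and 7 above (3.87%), against 95 (4.26%) and 138 (6.19%) of the 2230 autosomal genes. The share below was 22.7% on X and 9.70% on the autosomes when genes averaging under 5 scaled CPM were left out. The median log2 change of X genes was -0.42. Against wildtype of experiment 1 the medians on X were -0.48 for rnp-2(mg582), -0.41 for mog-2(ok1221) and 0.20 for rnp-3(ok1424), so on this chromosome the U2 mutants differed from each other and mog-2(ok1221) lay near the U1 mutant. In experiment 2 the X medians were -0.48 in rnp-2(mg582) and -0.46 in rnp-2(tm4058), against -0.04 and -0.09 over all genes.

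**Figure D5:**
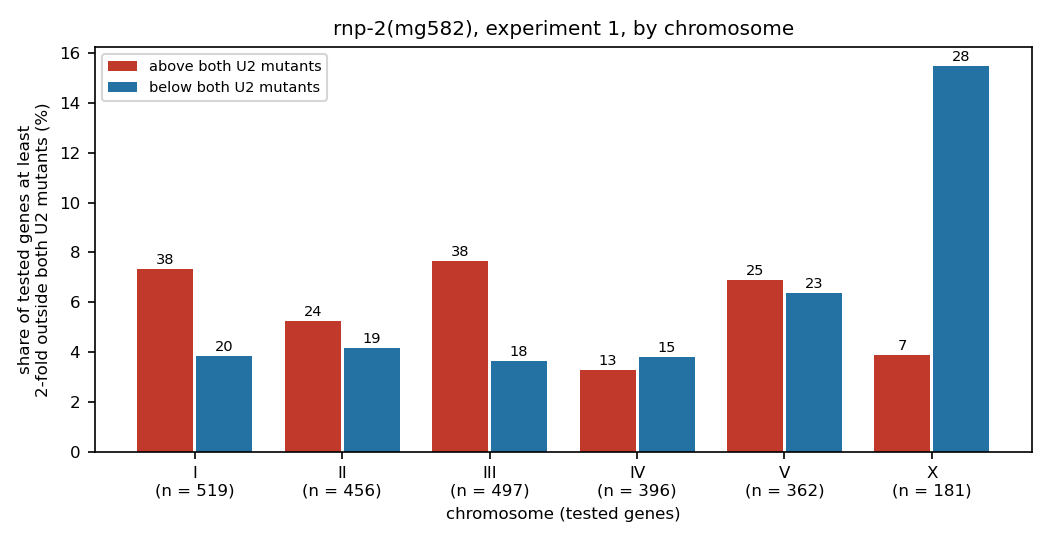
Share of tested genes (percent) at least 2-fold above both (red) and below both (blue) U2 mutants in rnp-2(mg582) of experiment 1, by chromosome, with the number of genes over each bar. The X bar for genes below both, at 15.5%, is the tallest, and the autosomes lie between 3.28% and 7.65% for either direction.

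Single introns gave no further call in their spliced reads. Of 3831 introns tested, none passed in limma (0.00%), while 331 had an unadjusted p under 0.05, edgeR called 128 and DESeq2 called 14. By distance 248 introns lay at least 2-fold above both U2 mutants (6.47%) and 6.13% of introns lay below both, close to the shares of genes. With experiment as a replicate block over 7 libraries, 968 introns passed, 414 higher and 554 lower. In the 20 genes named by distance, every junction lay on its gene's side of both U2 mutants, at any distance, with 3 exceptions. These were C04G2.10, with 1 of 3, B0001.5, with 4 of 6, and fbxa-149, with 4 of 5. Choosing genes by the sum of these same junctions tends to give this, and K08F11.1 and Y62F5A.9 have only 1 junction. The reads were not always spread: 1 junction of B0001.5 held 258 of its 286 spliced reads in mog-2(ok1221).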

How the data were processed

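Small RNA reads at splice junctions of C. elegans embryos were deposited by the authors as 1 table of CPM values, relative to the reads of each library, for 7 libraries. The tools STAR and SAMtools appear, unversioned, per the submitters' processing notes. Nothing used here states the filters, the strand or how reads with several positions were placed. The table was read as having spliced (exon-exon) and unspliced (intron-exon) columns, and coordinates as build WBcel235, since 98.6% of lines fall on an annotated intron boundary. A line enters the table only where some library reaches 0.505 CPM, so absence from it is not absence of reads.

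CPM values were whole multiples of 1 read in all 7 libraries (100% of values), which gave totals of 14573903 reads for rnp-2(mg582), 13068321 for mog-2(ok1221), 9901228 for rnp-3(ok1424) and 20830155 to 142819946 in the others. Junction reads were 1.33% to 2.03% of reads in experiment 1 and 0.0564% to 0.578% in experiment 2, lowest in rnp-2(tm4058). Of 7550 introns, 418 had spliced reads that repeated those of another (within 5%, at least 20 reads) and were reduced to 145. Only 1 intron of each such group was kept, so the unspliced reads of the others are in no total or share given here. Gene names follow the table, with 10 of 3717 unmatched to the annotation.

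CPM were scaled by TMM factors of spliced reads (0.834, 1.03 and 1.17 for the 3 mutants of experiment 1), 0.5 was added, and log2 values were fitted with limma 3.58.1 (trend) in R 4.3.3, with Benjamini-Hochberg adjustment over all features tested and a threshold of 0.05. Genes and introns passed edgeR's filter with a minimum count of 10; ratios needed 10 unspliced reads over the 3 libraries, and the donor-to-acceptor ratio both ends. edgeR 4.0.16 and DESeq2 1.42.0 on recovered reads, other scalings, filters and pseudocounts, and 7-library fits were alternatives. The steps were tested on simulated data.

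Gene lists, the comparison and the naming rule were chosen with earlier results of these data known. The rule named the 10 genes farthest above and below among those with a mean of 5 scaled CPM, 6 introns per direction with 20 reads in each library, 4 per direction for intron ends, and list members outside both; of the 2 most abundant members that it also named per list, those of the RNA interference and ERGO-1 lists are described and the others are covered by their list's counts. The 14 genes and 12 introns past the threshold were named beyond it, after their values were seen. The experiment number is taken from the labels as a shared batch; deviations of wildtype and rnp-2(mg582) from their group means correlated across genes (r = 0.37, 2413 genes).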

Additional observations from a re-analysis of the deposited data

How the results depend on the processing

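Values here are numbers of features called, unless stated. The fit with the replicate block leaves the difference between the U2 libraries out of its error, as given above, so its counts are not like those of the main fit. For genes, spliced reads (14 called), 0 passed with library size alone, median-of-ratios scaling, no filter or a mean of at least 5 CPM (219, 196, 261 and 51 at an unadjusted p under 0.05), 7 with a pseudocount of 0.1 (6 of the 14) and 15 with 1 (13 of the 14); edgeR called 110, DESeq2 26, and the 7-library fit 308 with no replicate block and 523 with the replicate block. For introns, spliced reads (0), counts were 16 with a mean of at least 5 CPM, 128 by edgeR, 14 by DESeq2, 509 with no replicate block and 968 with it, and 0 otherwise. For the unspliced-to-spliced ratio (12), counts were 0 with no filter, 6 with a pseudocount of 0.1, 21 with 1, 6 by edgeR's interaction test, 55 with no replicate block and 123 with it, and 10 to 15 otherwise. For the donor-to-acceptor ratio (0), counts were 493 with no filter, where introns with equal values in both U2 mutants have no spread, 9 with no replicate block and 34 with it, and 0 otherwise.

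Leaving out mog-2(ok1221) or rnp-3(ok1424) from the fit with the replicate block gave 543 to 548 genes, 865 to 1051 introns for spliced reads, 113 to 125 for the unspliced-to-spliced ratio and 36 to 39 for the donor-to-acceptor ratio; without rnp-2(mg582) replicate 1 that fit has no residual degree of freedom, so no test was possible. Genes outside both U2 mutants (270) numbered 66 at 4-fold, 1688 at any distance, 409 with a pseudocount of 0.1 and 80 with a mean of at least 5 CPM, of which 21 lay above and 59 below; 193 to 311 did under the other settings. Against a single U2 mutant, an alternative chosen after seeing the data, the range was 537 to 585. For single genes and introns named here the sign held in all settings but for rnp-2, whose log2 change was 0.0024 without mog-2(ok1221), and T20B3.1, whose ratio change was 1.37 by edgeR. The cause of these shifts was not tested. Depth limits the introns: rnp-2(mg582) gave 15517 unspliced reads in all, and many shares rest on under 100.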
